A study of Mus musculus with 15 samples.

Results

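Hearts of Nat10 knockout pups given NAT10 with the G641E substitution were set against hearts of knockout pups given wild-type NAT10. The labels alone decide which libraries belong to this comparison, 6 of the 15 of the series with 3 in each group. Poly-A RNA of whole heart was sequenced, and 15321 of the 54532 genes in the table were tested, namely those reaching 0.5 FPKM in 3 or more of all 15 libraries. FPKM counts fragments per unit of gene length and per unit of library size.

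CKO_G641E hearts came from Nat10-CKO mice, a conditional knockout, injected with AAV9-cTnT-NAT10G641E, and CKO_NAT10 hearts from Nat10-CKO mice injected with AAV9-cTnT-NAT10. For scale, values are also given for CKO_GFP (Nat10-CKO mice given the same vector with green fluorescent protein, GFP) and for ff_GFP (Nat10flox/flox mice given that GFP vector). A further group, CKO_K209A, carried NAT10 with the K209A substitution and entered the filter, the shared model and 2 contrasts given for scale. All mice received virus by subcutaneous injection on day 1 of life, and hearts were taken 12 to 14 days later. AAV9 is an adeno-associated virus that reaches heart muscle, and cTnT is the cardiac troponin T promoter, so the transgene is driven in cardiomyocytes while the other cells of the heart are sampled with them. The labels name neither the Cre line behind the knockout nor the sex of the mice, and call the 3 hearts of a group independent biological replicates.

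NAT10 is a nucleolar enzyme that uses acetyl-coenzyme A to acetylate cytidine in RNA. Its best known substrates are the RNA of the small ribosomal subunit and some transfer RNAs, acetylated with the adaptor protein THUMPD1. It also binds RNA and hydrolyses ATP, and it is required for making small ribosomal subunits. Cells in which ribosome production is disturbed often raise genes driven by p53, a transcription factor that restrains growth. Cells short of amino acids, or with other stresses that act on translation, raise genes driven by ATF4, a transcription factor whose own translation rises in such stress. Elsewhere, G641E has been used as a substitution that impairs acetylation by NAT10. The series title names the RNA binding and acetyltransferase activities of NAT10, and its labels do not say which substitution was meant to affect which.

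The 6 libraries held between 13218352 and 15912700 reads in genes, as recovered from FPKM and gene length. A tested gene had a median of 230 reads per library, and 8 reads marked the lowest 10% of genes. Mitochondrially encoded genes took 15.7% to 19.2% of the reads. Tnnt2, which encodes cardiac troponin T, measured 610, 511 and 630 FPKM in CKO_G641E and 509, 487 and 556 in CKO_NAT10, and 5 of 21 markers of other tissues passed the filter on low values. On the first principal component of the 6 libraries, with 33.7% of the variance, replicate 2 of both groups stood apart from the other 4. The second component, with 20.9%, set the CKO_G641E libraries apart from the CKO_NAT10 libraries. Xist, the RNA that coats the silenced X chromosome in females, measured 16 FPKM in CKO_NAT10 replicate 2 and at most 0.225 in the other 5, so 1 female-like library sits in the CKO_NAT10 group. Its part in the results was not tested; values without it are given below where they alter a call.

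Nat10 (ENSMUSG00000027185, chromosome 2, 103721256 to 103761270 on GRCm38) measured 2.58, 2.29 and 2.20 FPKM in CKO_G641E and 2.89, 2.05 and 2.92 FPKM in CKO_NAT10. The groups overlapped, and the difference was -0.12 on the log2(FPKM + 0.5) scale (SE 0.113, adjusted p = 0.956). CKO_GFP had 3.47, 3.43 and 3.53 FPKM and ff_GFP 4.14, 3.87 and 4.28, so the Nat10 entry was not higher with either transgene. The table has no separate entry for the transgenes, so it is not known whether both were expressed at the same level. Thumpd1, the adaptor for transfer RNA acetylation, measured 8.5 ± 0.284 FPKM in CKO_G641E and 8.89 ± 0.662 in CKO_NAT10 (SD, n = 3 each), with a difference of at most 1.21-fold by its 95% interval.

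Few genes told the 2 groups of hearts apart. At an adjusted p under 0.05 (limma, 1 model over the 5 groups of 3 hearts, Benjamini-Hochberg over all genes tested), 8 of 15321 genes were called, 0.0522%, with 5 higher in CKO_G641E (0.0326%) and 3 lower (0.0196%). The split depended on the scaling: it was 4 higher and 5 lower with quantile normalization, 0 and 2 with equal FPKM sums, and 1 and 3 with library sizes set to the sum of reads. The genes that rose encode a stress transcription factor (Atf3), the receptor for bacterial lipopolysaccharide (Tlr4), proteins of muscle and of the actin cytoskeleton (Dusp27 and Filip1) and a calcium-binding protein linked to cilia (Cabcoco1). The genes that fell were the p53 target Eda2r and the microRNA loci Mir320 and Gm44462. These loci passed the filter only through the CKO_NAT10 libraries, so their direction was set by the filter. In the same model 6212 genes (40.5%) were called between CKO_GFP and ff_GFP, with 3032 higher (19.8%) and 3180 lower (20.8%) in CKO_GFP. CKO_K209A differed from CKO_NAT10 in 6363 genes (41.5%, 20.3% higher and 21.2% lower) and from CKO_G641E in 6250 (40.8%, 19.6% higher and 21.2% lower), and these comparisons share the CKO_K209A libraries. CKO_G641E differed from ff_GFP in 274 genes (1.79%, with 0.627% higher and 1.16% lower) and CKO_NAT10 in 378 (2.47%, with 0.79% higher and 1.68% lower), and these comparisons share the ff_GFP libraries.

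An unadjusted p under 0.05 was reached by 1031 genes (6.73%), where 766.1 would be reached if no gene differed. Of these, 569 (3.71%) were higher and 462 (3.02%) lower in CKO_G641E. All hearts of one group lay above all of the other for 2359 genes (15.4%), with 1224 higher (7.99%) and 1135 lower (7.41%). The middle 95% of the differences ran from -0.51 to 0.58, with a median of 0.00 and a median SE of 0.15.

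**Figure D1:**
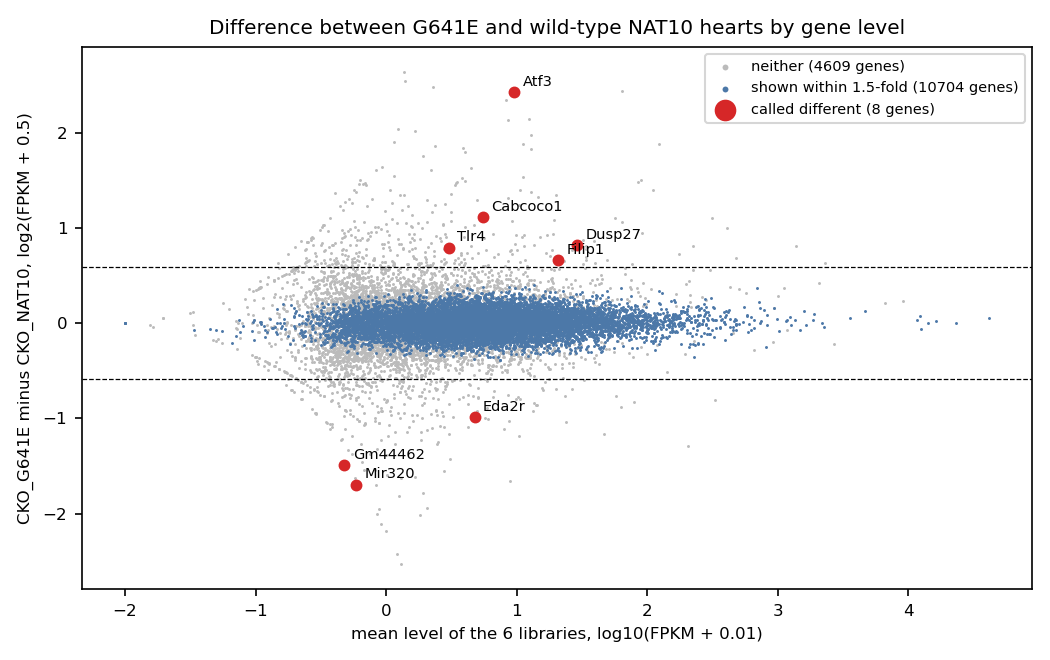
Difference between CKO_G641E and CKO_NAT10 on the log2(FPKM + 0.5) scale (y) against the mean level of the 6 libraries as log10(FPKM + 0.01) (x), 1 point a gene; dashed lines mark 1.5-fold. The 10704 genes shown to lie within 1.5-fold are blue, the 8 called genes are red, and the 4609 grey points, which belong to neither set, spread widest at low levels.

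A p above the threshold does not show that 2 groups are alike, so each gene was also asked whether its difference lay inside a 1.5-fold margin, with a pair of one-sided limma tests and adjustment over all genes. This held for 10704 genes, 69.9% of those tested. The 95% interval of the difference lay inside 2-fold for 13451 genes (87.8%), inside 1.5-fold for 10202 (66.6%) and inside 1.2-fold for 12.5% of genes. The median bound, that is the interval limit farther from 0, was 1.36-fold. Only 171 genes (1.12%) had an estimate of 2-fold or more, and 664 (4.33%) one of 1.5-fold or more.

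The bounds differed with the level of the gene. Of genes with a mean under 1 FPKM, 1184 of 3415 (34.7%) were shown within 1.5-fold. The share was 3733 of 5317 (70.2%) at 1 to 5 FPKM, 3988 of 4580 (87.1%) at 5 to 20, 1494 of 1656 (90.2%) at 20 to 100 and 305 of 353 (86.4%) at 100 or more. Protein-coding genes reached 10082 of 12513 (80.6%), long noncoding genes 313 of 1057 (29.6%), pseudogenes 255 of 1094 (23.3%) and small RNA genes 3 of 444 (0.676%). The 0.5 added before taking logs draws the differences of genes near 0 together, so a bound there speaks less of the fold than of how little RNA was read.

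**Figure D2:**
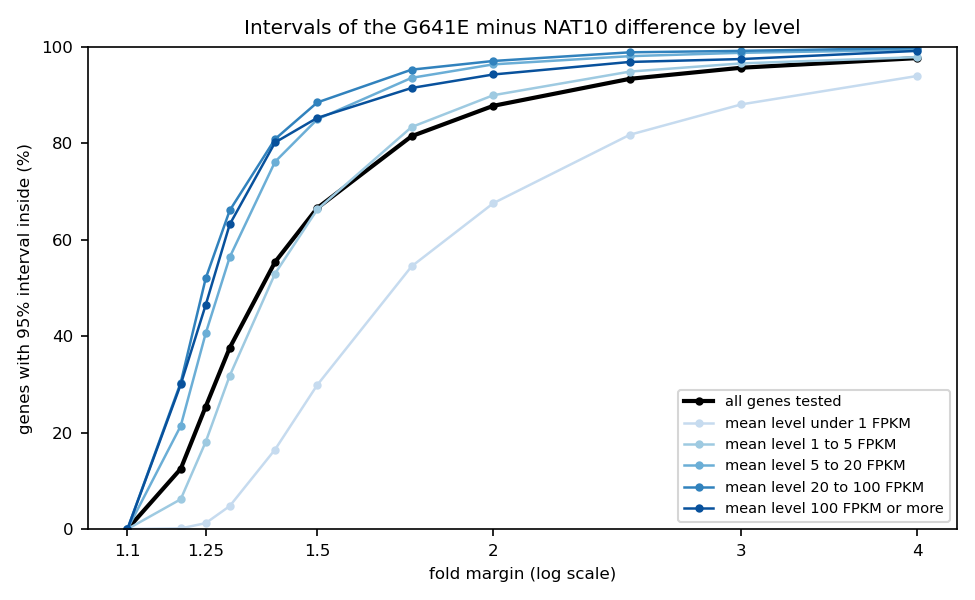
Percentage of genes (y) whose 95% interval for the CKO_G641E minus CKO_NAT10 difference lies inside a fold margin (x, log scale), for all 15321 genes (black) and by mean level (blue, darker for higher levels). At a 1.5-fold margin the curves stand at 29.9% for genes under 1 FPKM and at 88.5% for those at 20 to 100 FPKM; at 1.1-fold every curve is at 0.0604% or less.

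Genes that the knockout alters were looked at as a class. The 3032 genes higher in CKO_GFP than in ff_GFP had a median CKO_G641E minus CKO_NAT10 difference of 0.00, and 2284 of them (75.3%) were shown within 1.5-fold. For the 3180 genes lower in CKO_GFP the median was 0.01, and 2578 (81.1%) were shown within 1.5-fold. Among the 9109 genes not called in the knockout the share was 5842 (64.1%). These shares are descriptions: the SE is pooled over all 5 groups, so a call in the knockout also picks genes of small SE, with a median of 0.137 and 0.13 in the called classes and 0.163 among the uncalled genes, and the called genes stood at higher levels. Against ff_GFP the first class stood at a median of 0.14 in CKO_G641E and 0.13 in CKO_NAT10, and the second at -0.21 in CKO_G641E and -0.22 in CKO_NAT10.

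Set against the size of the knockout change, the bounds were wider. Of the 1651 genes that changed at least 2-fold between CKO_GFP and ff_GFP, 1070 (64.8%) had an interval within 50% of that change and 243 (14.7%) one within 25%, with a median bound of 40.3%. The difference pointed towards the knockout level in 718 of them (43.5%). Thbs4, which encodes the matrix protein thrombospondin 4 and stood at 72.1 ± 18.9 FPKM in CKO_GFP against 1.5 ± 0.148 in ff_GFP, measured 2.17, 1.76 and 3.31 FPKM in CKO_G641E and 2.67, 1.94 and 2.28 FPKM in CKO_NAT10. Its groups overlapped, and the difference of 0.03 was shown within 1.5-fold (bound 1.39-fold).

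Other genes of the knockout response were bounded less closely. Nppa, the atrial natriuretic peptide, measured 138, 77.6 and 111 FPKM in CKO_G641E and 515, 126 and 268 FPKM in CKO_NAT10, where CKO_GFP had 3400 ± 1300. The groups overlapped, with a difference of -1.29 (SE 0.439, adjusted p = 0.543). Nppb, which encodes the B-type natriuretic peptide, leaned the other way, at 786, 485 and 492 FPKM in CKO_G641E and 313, 299 and 487 in CKO_NAT10 (0.68, SE 0.235, adjusted p = 0.56). Kcnip2, which encodes a partner of cardiac potassium channels and was nearly lost in CKO_GFP (2.62 ± 2.20 FPKM against 46.3 ± 8.35 in ff_GFP), measured 37.3, 32.4 and 31.9 FPKM in CKO_G641E and 33.6, 47.1 and 52.1 in CKO_NAT10 (-0.36, SE 0.395). Its bound was 2.32-fold. Hrc, a calcium-binding protein of the sarcoplasmic reticulum, measured 175 ± 16.8 FPKM in CKO_G641E and 156 ± 32.9 in CKO_NAT10, and its bound was 1.92-fold.

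Several classes of mitochondrial metabolism were bounded closely. All 24 tricarboxylic acid cycle genes tested were shown within 1.5-fold, with a widest bound of 1.26-fold (Ogdh, a subunit of the 2-oxoglutarate dehydrogenase complex). All 24 were called lower in CKO_GFP than in ff_GFP. Of nuclear genes of the respiratory chain 75 of 77 were shown within 1.5-fold (median bound 1.17-fold), and of mitochondrial ribosomal protein genes all 77. Cpt2, an enzyme of the carnitine shuttle that brings fatty acids into mitochondria, measured 83.4 ± 5.16 FPKM in CKO_G641E and 79.3 ± 10.5 in CKO_NAT10, with a bound of 1.21-fold. In fatty acid oxidation 30 of 36 genes met the margin, and Pdk4, a kinase that restrains pyruvate use, did not: it measured 291, 251 and 254 FPKM in CKO_G641E and 161, 240 and 149 in CKO_NAT10, without overlap (0.56, SE 0.277, adjusted p = 0.78). The 13 mRNAs encoded in mitochondria were bounded loosely, 7 of them within 1.5-fold. Of 25 glycolysis genes 20 were shown within 1.5-fold, with a median bound of 1.37-fold and a widest of 7.19-fold for Gapdh.

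Genes for making proteins were also close. Of 81 cytosolic ribosomal protein genes 74 were shown within 1.5-fold, of 45 translation factor genes 44, of 70 ribosome biogenesis genes 65 and of 50 RNA modification genes 45, with no gene of these 4 lists called. Fbl, the methyltransferase of box C/D small nucleolar ribonucleoproteins, measured 6.27 ± 0.467 FPKM in CKO_G641E and 6.06 ± 0.325 in CKO_NAT10 (bound 1.19-fold). Rps18, a protein of the small subunit, measured 73.2 ± 1.81 FPKM in CKO_G641E and 77.5 ± 5.36 in CKO_NAT10 (bound 1.26-fold). Within ribosome biogenesis 10 genes reached an unadjusted p under 0.05 on the higher side (3.71% of all genes did) and 1 on the lower, and 51 of 70 differences lay above 0, with a median of 0.10. Without CKO_NAT10 replicate 2, the library with Xist, the median was 0.04, with 40 differences above 0 and 4 genes at that p on the higher side. With equal FPKM sums the median was 0.06, with 41 above 0 and 1 gene. Without CKO_G641E replicate 1 it was 0.06, with 5 genes. Nolc1, a nucleolar chaperone, measured 10.1, 9.58 and 9.88 FPKM in CKO_G641E and 7.52, 7.46 and 8.20 in CKO_NAT10, without overlap, and at 0.33 (SE 0.0925, adjusted p = 0.381) it still met the margin. Utp20, of the complex that processes the small subunit, leaned lower, at 1.5 ± 0.0634 FPKM in CKO_G641E and 2.20 ± 0.0977 in CKO_NAT10 (-0.43, adjusted p = 0.495). Rpl3l, the ribosomal protein made in muscle, measured 29.1, 22.4 and 24.6 FPKM in CKO_G641E and 12.9, 13.7 and 21.6 in CKO_NAT10 (0.67, SE 0.194, adjusted p = 0.4), where ff_GFP had 55.5 ± 9.14.

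Of the genes of contraction, 23 of 28 mature sarcomere genes and 23 of 32 calcium handling and channel genes were shown within 1.5-fold, with none called. Myh6, the main myosin heavy chain of the adult mouse heart, measured 4890 ± 422 FPKM in CKO_G641E and 4480 ± 361 in CKO_NAT10 (bound 1.35-fold), and Atp2a2, the calcium pump of the sarcoplasmic reticulum, 1660 ± 106 in CKO_G641E and 1520 ± 141 in CKO_NAT10 (bound 1.29-fold). Lmod2, which elongates thin filaments, had the smallest p of the sarcomere genes, with 271, 183 and 199 FPKM in CKO_G641E and 107, 129 and 156 in CKO_NAT10 (0.73, SE 0.187, adjusted p = 0.333). Of 27 fetal and stress genes 5 met the margin, with a median difference of 0.37; 9 lay higher in CKO_G641E without overlap, where 7.99% of all genes did, and none was called. Ctgf, a matricellular growth factor of this list, measured 258, 60.5 and 80.5 FPKM in CKO_G641E and 36.9, 32 and 48 in CKO_NAT10 (1.48, SE 0.446, adjusted p = 0.435), so CKO_G641E replicate 1 alone stood above 100 FPKM. Relative to the CKO_NAT10 mean, library means of the fetal and stress list overlapped. They were 0.48, 0.07 and 0.60 in CKO_G641E and 0.16, -0.21 and 0.05 in CKO_NAT10. Those of 9 atrial markers were 0.03, -0.19 and 0.82 in CKO_G641E and 0.09, -0.03 and -0.06 in CKO_NAT10. Replicate 3 of CKO_G641E was thus highest in both lists, and the part of atrial tissue was not tested.

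**Figure D3:**
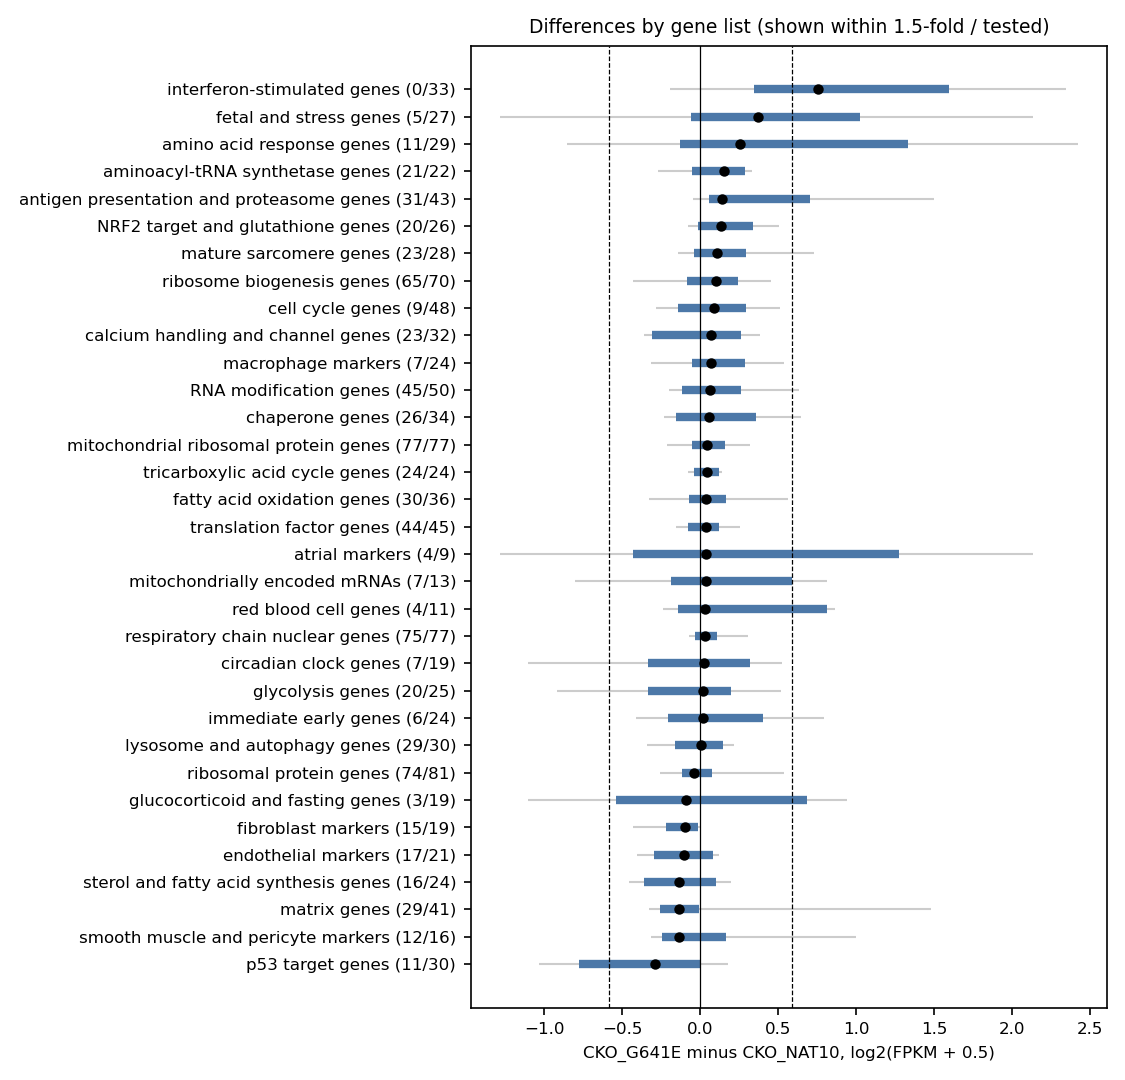
CKO_G641E minus CKO_NAT10 differences on the log2(FPKM + 0.5) scale for the 33 gene lists with at least 9 members tested: black points are list medians, blue bars hold the members between the 10th and 90th percentiles, grey lines over their whole range, and dashed lines mark 1.5-fold. Numbers in brackets are members shown within 1.5-fold and members tested, from 24 of 24 for the tricarboxylic acid cycle to 0 of 33 for interferon-stimulated genes.

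Genes of the amino acid response, a list of ATF4 targets and regulators, leaned higher in CKO_G641E. This list and that of p53 targets were chosen with earlier results of these data known, so their counts are descriptions. Of 29 members tested, 25 had a difference above 0, with a list median of 0.25 beside 0.00 for all genes. Atf3 alone was called. In all, 11 members (37.9%) reached an unadjusted p under 0.05 on the higher side, where 3.71% of all genes did, and 14 (48.3%) lay higher without overlap, where 7.99% did. On the lower side these counts were 2 and 3 members. In all, 11 members were shown within 1.5-fold.

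Atf3 (ENSMUSG00000026628, chromosome 1, 191170296 to 191218039), a stress-induced transcription factor of the ATF family, measured 20.5, 13.2 and 15.9 FPKM in CKO_G641E and 2, 3.62 and 2.47 FPKM in CKO_NAT10. Every CKO_G641E heart stood above every CKO_NAT10 heart (2.42, SE 0.383, adjusted p = 0.04997). CKO_GFP varied, at 18.8, 32.3 and 7.30 FPKM, and ff_GFP had 1.95, 1.70 and 1.62. The call lies just inside the threshold and was lost in each of the 6 fits that left out 1 CKO_G641E or CKO_NAT10 library (adjusted p = 0.0924 to 0.241).

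Enzymes of serine and folate metabolism, which feed amino acid and nucleotide synthesis, stood higher without a call. Mthfd2, an enzyme of mitochondrial folate metabolism, measured 7.97, 5.97 and 4.63 FPKM in CKO_G641E and 2.06, 1.83 and 1.60 in CKO_NAT10 (1.5, SE 0.321, adjusted p = 0.19). Phgdh, the first enzyme of serine synthesis, measured 3.56, 2.98 and 2.88 FPKM in CKO_G641E and 1.27, 0.875 and 0.839 in CKO_NAT10 (1.29, SE 0.231, adjusted p = 0.0808). Neither gene had any overlap between the groups. Psat1, the next enzyme of serine synthesis, was at 2.97 ± 0.380 FPKM in CKO_G641E and 1.83 ± 0.224 in CKO_NAT10 (0.58, adjusted p = 0.498), while Shmt2 and Psph of the same routes were shown within 1.5-fold, with bounds of 1.21-fold and 1.22-fold.

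Asns, asparagine synthetase, measured 5.13, 6.06 and 4.89 FPKM in CKO_G641E and 1.68, 2.05 and 1.16 in CKO_NAT10 (1.48, SE 0.354, adjusted p = 0.275). Trib3, a pseudokinase that restrains ATF4, measured 4.44, 5.01 and 3.82 FPKM in CKO_G641E and 1.61, 2.28 and 1.64 in CKO_NAT10 (1.08, SE 0.276, adjusted p = 0.333). For both, the 2 groups were separate. The model pools the spread of all 5 groups, and CKO_GFP replicate 1 had 5.53 FPKM of Asns where the other CKO_GFP hearts had 1.56 and 1.32. Without that library the SE of Asns was 0.19, and Mthfd2, Phgdh, Asns and Trib3 were called (adjusted p = 0.0118, 0.0118, 0.0118 and 0.0154). They were among 27 genes in all, 14 higher and 13 lower, which held the 8 genes of the full fit. With the 2 groups fitted alone in limma, these values were 0.152, 0.152, 0.152 and 0.187. Leaving out 1 CKO_G641E or CKO_NAT10 library gave adjusted p of 0.304 to 0.532 for Mthfd2 and 0.166 to 0.319 for Phgdh. It gave 0.445 to 0.581 for Asns and 0.457 to 0.708 for Trib3.

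Amino acid transporters leaned the same way, Slc7a5 at 6.48 ± 1.02 FPKM in CKO_G641E and 3.69 ± 0.434 in CKO_NAT10 (0.73, adjusted p = 0.363) and Slc38a2 at 82.1 ± 17.0 in CKO_G641E and 54.1 ± 1.81 in CKO_NAT10 (0.58, adjusted p = 0.433). Atf4 itself measured 40.7, 43.9 and 49.7 FPKM in CKO_G641E and 35.5, 36.8 and 36.0 in CKO_NAT10, without overlap, and at 0.30 it was shown within 1.5-fold. Of the 4 members below 0, 3 lay lower without overlap. Cebpb, a transcription factor that pairs with ATF4, measured 10.3, 11.6 and 8.30 FPKM in CKO_G641E and 20.3, 17.3 and 17.9 in CKO_NAT10 (-0.86, SE 0.238, adjusted p = 0.383), and Sesn2, a leucine sensor that p53 also drives, was at 4.07 ± 0.547 in CKO_G641E and 6.39 ± 1.23 in CKO_NAT10 (-0.59, adjusted p = 0.681). Ddit4, an inhibitor of the growth kinase mTOR, measured 17.2, 15.5 and 18 FPKM in CKO_G641E and 41.3, 21.1 and 28 in CKO_NAT10 (-0.77, SE 0.447, adjusted p = 0.851). The aminoacyl-tRNA synthetases, several of which ATF4 drives, showed a smaller lean: 21 of 22 were shown within 1.5-fold, and 11 lay higher without overlap against 0 lower, where 7.99% and 7.41% of all genes did. Gars, which charges glycine, measured 34.0 ± 0.447 FPKM in CKO_G641E and 27.3 ± 0.740 in CKO_NAT10 (0.31, adjusted p = 0.23).

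The promoters of the amino acid list were taken from RefSeq (GRCm38.p6, 250 bases before to 50 after the start). They were searched on both strands for TGATGNAA, the core of the element at which ATF4 binds with C/EBP partners. It was found in 8 of the 26 list members that have a promoter in the table, against 4.51% of all 27025 genes with a promoter there, and in 3.97% of all 32851 promoters. The 3 of these 8 genes with the largest differences are shown, 5′ to 3′ on the strand of the gene, with the match or its reverse complement in capitals. The windows are chr1:191183284-191183583, chr6:7693160-7693459 and chr2:152344011-152344310, all on the minus strand.
Atf3: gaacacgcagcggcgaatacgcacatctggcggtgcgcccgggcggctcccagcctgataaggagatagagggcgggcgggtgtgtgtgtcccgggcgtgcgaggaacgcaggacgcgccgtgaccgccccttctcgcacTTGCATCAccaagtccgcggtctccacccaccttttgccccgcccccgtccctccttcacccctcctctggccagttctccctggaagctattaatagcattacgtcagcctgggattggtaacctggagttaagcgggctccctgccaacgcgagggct
Asns: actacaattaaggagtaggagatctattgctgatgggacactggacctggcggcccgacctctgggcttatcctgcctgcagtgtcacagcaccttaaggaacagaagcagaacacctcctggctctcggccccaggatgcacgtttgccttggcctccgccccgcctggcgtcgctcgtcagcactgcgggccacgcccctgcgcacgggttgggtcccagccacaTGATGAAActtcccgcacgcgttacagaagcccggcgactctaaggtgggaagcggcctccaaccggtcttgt
Trib3: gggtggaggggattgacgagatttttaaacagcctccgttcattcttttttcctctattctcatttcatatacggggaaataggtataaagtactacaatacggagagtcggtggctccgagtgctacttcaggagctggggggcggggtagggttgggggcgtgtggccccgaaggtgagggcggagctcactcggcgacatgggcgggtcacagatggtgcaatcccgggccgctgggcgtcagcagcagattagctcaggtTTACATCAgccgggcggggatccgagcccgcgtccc
The match lies 110 bases before the start in Atf3, 23 before it in Asns and 14 after it in Trib3. Phgdh, Mthfd2, Psat1, Atf4 and Slc38a2 had no match in this window. Chac1, Pycr1, Nupr1, Vldlr and Herpud1 held a match too. Of these, Herpud1 measured 38.6, 35.9 and 33.2 FPKM in CKO_G641E and 30.6, 33.6 and 39.6 in CKO_NAT10, with overlap. The list is one of ATF4 targets and regulators, so a share above that of all genes follows from how it was made. That share does not bear on the lean. A match is a description of the letters.

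Targets of p53 formed the other group, with differences of the opposite sign. Of 30 members tested, 25 had a difference below 0, with a list median of -0.29. Eda2r alone was called. In all, 11 members (36.7%) reached an unadjusted p under 0.05 on the lower side, where 3.02% of all genes did, and 14 (46.7%) lay lower without overlap, where 7.41% did. On the higher side both counts were 0. In CKO_GFP 25 of the 30 were called higher than in ff_GFP and 2 lower. Sesn2 is in both lists.

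Eda2r (ENSMUSG00000034457, chromosome X, 97333840 to 97377216), a receptor of the tumour necrosis factor family, measured 2.51, 3.56 and 3.06 FPKM in CKO_G641E and 6.77, 6.20 and 6.41 in CKO_NAT10. The groups were separate (-0.98, SE 0.131, adjusted p = 0.0192), and CKO_GFP had 12.4 ± 1.06 FPKM and ff_GFP 0.837 ± 0.153. Cdkn1a, which encodes the cell cycle inhibitor p21, measured 45.3, 44.0 and 43.2 FPKM in CKO_G641E and 101, 68.5 and 79.7 in CKO_NAT10, against 283 ± 56.5 in CKO_GFP and 9.64 ± 1.05 in ff_GFP. It missed the threshold narrowly (-0.89, SE 0.151, adjusted p = 0.0662) and passed it without CKO_GFP replicate 1 (adjusted p = 0.0131). It did not pass with the 2 groups fitted alone in limma (adjusted p = 0.206). Nor did it pass without any 1 CKO_G641E or CKO_NAT10 library (adjusted p = 0.0912 to 0.264). Both Eda2r and Cdkn1a stood above ff_GFP in both rescued groups: the log2 differences from ff_GFP were 1.4 for Eda2r and 2.14 for Cdkn1a in CKO_G641E, and 2.39 and 3.03 in CKO_NAT10 (all with adjusted p of 0.000179 or below).

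Phlda3, an inhibitor of AKT signalling, measured 41.6, 39.5 and 44.5 FPKM in CKO_G641E and 86.9, 53.6 and 78 in CKO_NAT10 (-0.76, SE 0.166, adjusted p = 0.209). Ccng1, cyclin G1, was at 201 ± 25.4 FPKM in CKO_G641E and 256 ± 13.2 in CKO_NAT10 (-0.36, adjusted p = 0.342), and Mdm2, the ubiquitin ligase that degrades p53, at 16.7 ± 0.488 in CKO_G641E and 20.9 ± 1.03 in CKO_NAT10 (-0.32, adjusted p = 0.4). Neither overlapped between groups, and both were shown within 1.5-fold. Aen, Polk, Zmat3 and Ei24, with roles in nuclease action, bypass of DNA damage, RNA binding and cell death, lay lower without overlap too (-0.47, -0.44, -0.35 and -0.22). Dcxr, a carbonyl reductase at 32.2 ± 1.41 FPKM in CKO_GFP and 1.29 ± 0.491 in ff_GFP, had 3.64 ± 0.241 FPKM in CKO_G641E and 4.37 ± 1.52 in CKO_NAT10, with overlap. Gadd45a, Tigar, Rrm2b and Pltp were within 1.5-fold with differences from -0.03 to 0.01.

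**Figure D4:**
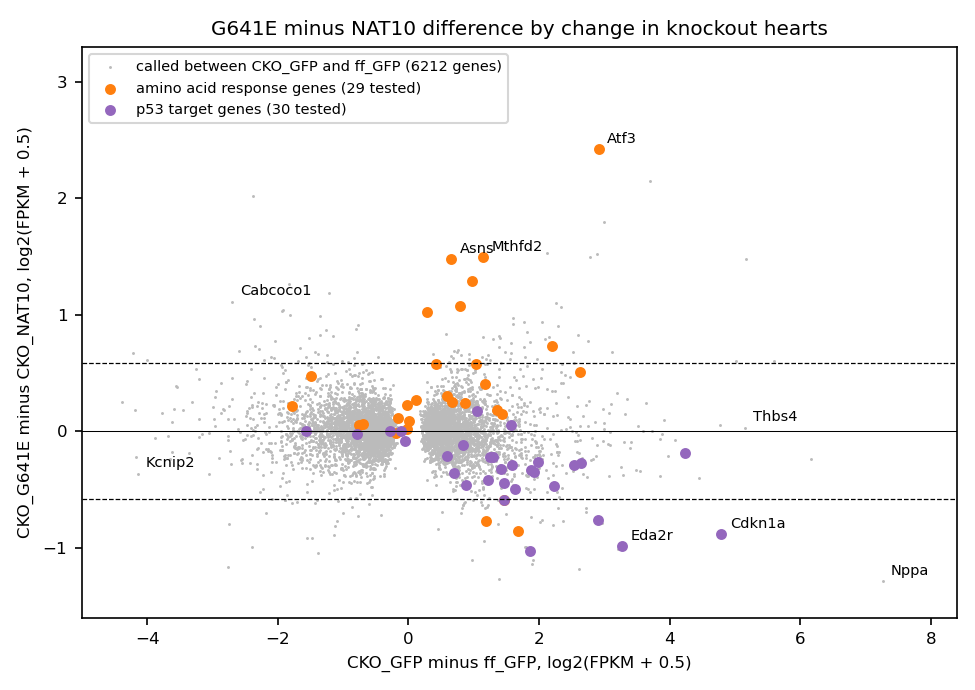
CKO_G641E minus CKO_NAT10 difference (y) against the CKO_GFP minus ff_GFP difference (x), both on the log2(FPKM + 0.5) scale, 1 point a gene; dashed lines mark 1.5-fold. The 6212 genes called in the knockout (grey) lie about 0, with amino acid response genes (orange) mostly above it, up to Atf3 at 2.42, and p53 targets (purple) mostly below it, with Eda2r at -0.98.

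Over 27 ways of fitting the data, the median of the amino acid list stayed between 0.20 and 0.30, and that of the p53 list between -0.37 and -0.22. Many of these fits alter only the spread or leave out hearts of other groups, which cannot move these medians. Leaving out 1 CKO_G641E or CKO_NAT10 library, which can, gave 0.246 to 0.299 for the amino acid list and -0.354 to -0.222 for the p53 list. Library means of the amino acid list, each relative to the mean of all CKO_NAT10 libraries, were 0.48, 0.42 and 0.34 in CKO_G641E and 0.03, 0.02 and -0.04 in CKO_NAT10. Those of the p53 list were -0.33, -0.30 and -0.35 in CKO_G641E and 0.11, -0.11 and 0.00 in CKO_NAT10. In both lists each CKO_G641E heart lay beyond each CKO_NAT10 heart.

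The other genes that rose are in none of the gene lists. Cabcoco1 (chromosome 10, 68430953 to 68541896) measured 8.90, 7.16 and 6.98 FPKM in CKO_G641E and 3.04, 2.95 and 3.86 in CKO_NAT10 (1.11, SE 0.144, adjusted p = 0.0192). It had 0.713 ± 0.129 FPKM in CKO_GFP and 7.40 ± 0.510 in ff_GFP. Against ff_GFP, CKO_NAT10 was lower (-1.07, adjusted p = 0.00254). CKO_G641E was not called different from ff_GFP (0.04, adjusted p = 0.926), which alone does not show likeness. Tlr4 (chromosome 4, 66827584 to 66930284) measured 3.89, 4.13 and 3.85 FPKM in CKO_G641E and 2.04, 2.05 and 2.13 in CKO_NAT10 (0.79, SE 0.112, adjusted p = 0.0205). Here CKO_G641E was near CKO_GFP, at 3.92 ± 0.595, and farther from ff_GFP, at 1.29 ± 0.169.

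Filip1 (chromosome 9, 79815051 to 80012851), which binds filamin A, measured 26.1, 24.4 and 26.1 FPKM in CKO_G641E and 17.8, 14.6 and 15.6 in CKO_NAT10 (0.67, SE 0.0917, adjusted p = 0.0194). Dusp27 (chromosome 1, 166098148 to 166127922), a phosphatase-like protein of muscle, measured 41.1, 32.1 and 39.1 FPKM in CKO_G641E and 20.8, 19.2 and 22.6 in CKO_NAT10 (0.82, SE 0.125, adjusted p = 0.037). Every CKO_G641E heart stood above every CKO_NAT10 heart for both. Filip1 had 21.3 ± 1.29 FPKM in CKO_GFP and 16.3 ± 1.95 in ff_GFP, and Dusp27 had 30.7 ± 4.87 in CKO_GFP and 28.0 ± 1.61 in ff_GFP.

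Mir320 and Gm44462 are short microRNA loci whose calls rest on single reads. Mir320 (chromosome 14, 70443510 to 70443591) had 0, 0 and 0 reads in CKO_G641E and 2, 1 and 1 in CKO_NAT10, and Gm44462 (chromosome 7, 112713951 to 112714079) 0, 0 and 0 in CKO_G641E and 1, 2 and 2 in CKO_NAT10. Their adjusted p values were 0.0133 and 0.0192. Both groups lie under a floor of 3 reads per library, so no fold is given. Both loci were at 0 FPKM in CKO_GFP, ff_GFP and CKO_K209A, and reached 0.5 FPKM in the 3 CKO_NAT10 libraries alone. They were tested only because CKO_NAT10 was high, so their calls are no support for a difference. With voom weights for read number the adjusted p values were 0.449 and 0.367. Poly-A libraries are not made to measure mature microRNAs.

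**Figure D5:**
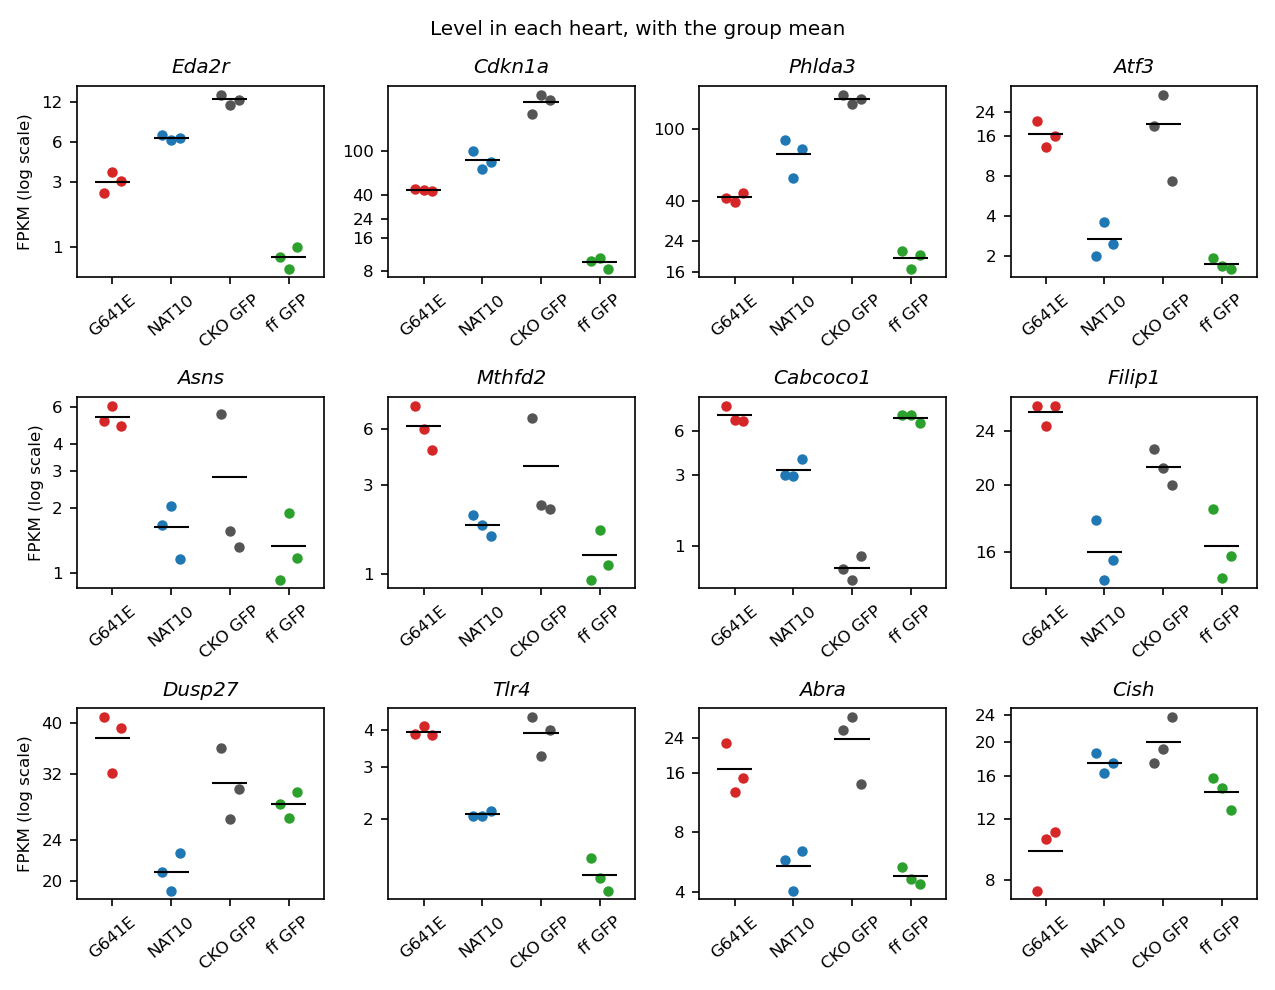
FPKM (log scale, 1 point a heart, bars at the group mean of 3 hearts) of 12 genes in CKO_G641E, CKO_NAT10, CKO_GFP and ff_GFP. The CKO_G641E hearts lie apart from the CKO_NAT10 hearts in every panel, below them for Eda2r, Cdkn1a, Phlda3 and Cish and above them for the other 8 genes.

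Just past the threshold stood further separate genes. Rnd3, a small GTP-binding protein that loosens actin fibres, was at 13 ± 1.56 FPKM in CKO_G641E and 8.11 ± 0.137 in CKO_NAT10 (0.65, adjusted p = 0.0597), and Abra, an actin-binding protein of muscle, at 16.8 ± 5.16 in CKO_G641E and 5.41 ± 1.22 in CKO_NAT10 (1.53, adjusted p = 0.0685). Abra stood at 23.7 ± 8.71 FPKM in CKO_GFP and 4.79 ± 0.508 in ff_GFP. Cish, a feedback inhibitor of cytokine receptors, was lower, at 7.43, 10.5 and 11.0 FPKM in CKO_G641E and 18.6, 16.3 and 17.4 in CKO_NAT10 (-0.84, adjusted p = 0.0662). Epha4, an ephrin receptor, was at 1.95 ± 0.283 in CKO_G641E and 3.51 ± 0.175 in CKO_NAT10 (-0.72, adjusted p = 0.0826). Plod2, a lysyl hydroxylase of collagen, gave 6.35 ± 0.0675 in CKO_G641E and 8.45 ± 0.402 in CKO_NAT10 (-0.39, adjusted p = 0.119) and was also shown within 1.5-fold. Lrrc28 (-0.54, adjusted p = 0.0662) and Fra10ac1 (-0.49, adjusted p = 0.23) were lower, both without overlap.

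No marker of the other cells of the heart was called. Beside the counts below, 7.41% of all genes were lower and 7.99% higher without overlap. Of 19 fibroblast markers all had a difference below 0, with a median of -0.10, 2 lower without overlap and 15 shown within 1.5-fold. Without CKO_G641E replicate 1, 5 fibroblast markers lay above 0, and 4 did without CKO_G641E replicate 3 or without CKO_NAT10 replicate 3. Of 21 endothelial markers 5 had a difference above 0, with a median of -0.11, 8 lower without overlap and 17 within 1.5-fold. Of 41 matrix genes 4 had a difference above 0, with a median of -0.14, 11 lower without overlap, 2 higher and 29 within 1.5-fold, and Col1a1, the main fibrillar collagen, measured 212 ± 11.7 FPKM in CKO_G641E and 232 ± 6.23 in CKO_NAT10 (bound 1.34-fold). Of 16 smooth muscle and pericyte markers 12 were within 1.5-fold, with a median of -0.14 and 5 lower without overlap. One lay higher without overlap, Acta2, smooth muscle actin, which developing cardiomyocytes also make, at 528, 546 and 540 FPKM in CKO_G641E and 181, 273 and 392 in CKO_NAT10 (1.00, SE 0.38, adjusted p = 0.633). Of 11 red blood cell genes 4 lay higher without overlap and 4 were within 1.5-fold, and Hba-a2, an alpha globin whose reads may be shared with its near-identical copy, measured 44.2, 51 and 57.9 FPKM in CKO_G641E and 29.5, 28.2 and 25.5 in CKO_NAT10 (0.86, SE 0.496, adjusted p = 0.846). In whole heart, fewer cells of a type and less RNA per cell cannot be told apart, and the part of cell make-up in the results above was not tested. Cell cycle genes were bounded loosely, with 9 of 48 within 1.5-fold and a median SE of 0.36, and so were macrophage markers, with 7 of 24. Of 7 lymphocyte and neutrophil markers tested, 1 had a difference above 0, 1 lay lower without overlap and 1 was within 1.5-fold. Their median difference was -0.27 at a median level of 0.71 FPKM.

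Interferon-stimulated genes, which cells raise against viruses, could not be bounded at all. None of 33 met the 1.5-fold margin, the median bound was 4.77-fold, and the list median was 0.75 with no gene called. A difference above 0 was seen in 32 of the 33. Only 2 lay higher without overlap and 0 lower, where 7.99% and 7.41% of all genes did. Library means over the list were 0.72, 1.995 and -0.07 in CKO_G641E and -0.87, 1.49 and -0.62 in CKO_NAT10, so replicate 2 was the highest of each group. Ifit1, a sensor of viral RNA, measured 9.41, 27.7 and 3.98 FPKM in CKO_G641E and 0.465, 7.24 and 0.785 in CKO_NAT10 (2.34, SE 0.939, adjusted p = 0.654). The list median was 0.22 without CKO_G641E replicate 2, 1.47 without CKO_NAT10 replicate 2 and 0.94 without both. It was 1.19 without CKO_G641E replicate 3 and 0.33 without CKO_NAT10 replicate 1. Antigen presentation and proteasome genes, part of which interferon drives, had a difference above 0 in 40 of 43, with 31 within 1.5-fold, none called and a median of 0.14. Of these 43, 12 lay higher without overlap and 0 lower.

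Other lists held smaller leans or wide bounds, to be read against the 7.99% of all genes higher and 7.41% lower without overlap. Of 26 NRF2 target and glutathione genes 20 were shown within 1.5-fold, with 7 higher without overlap against 0 lower, and of 34 chaperone genes 26, with 8 higher against 1 lower. Lysosome and autophagy genes were close, with 29 of 30 within 1.5-fold. Sterol and fatty acid synthesis genes had a median of -0.14, with 5 of 24 lower without overlap and 16 within 1.5-fold. Immediate early genes (6 of 24 within 1.5-fold), circadian clock genes (7 of 19) and glucocorticoid and fasting genes (3 of 19) were bounded loosely, with medians of 0.01, 0.02 and -0.09 and no call.

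The calls themselves were easily lost when a heart was left out, which also lowers the power to call a gene. No gene was called when any 1 CKO_G641E library was left out, and 3, 1 and 2 genes without CKO_NAT10 replicate 1, 2 or 3. Over these 6 fits Eda2r, Tlr4, Dusp27 and Atf3 missed the threshold each time, with adjusted p from 0.0517 to 0.127 for Eda2r, 0.0924 to 0.14 for Tlr4 and 0.0517 to 0.206 for Dusp27. Cabcoco1 passed without CKO_NAT10 replicate 3 (adjusted p = 0.0315) and Filip1 without CKO_NAT10 replicate 1 (adjusted p = 0.0244). The estimates moved less over these fits. They ran from -1.09 to -0.872 for Eda2r, 0.767 to 0.811 for Tlr4, 0.752 to 0.928 for Dusp27 and 2.26 to 2.62 for Atf3. Those of Cabcoco1 ran from 1.01 to 1.22 and those of Filip1 from 0.604 to 0.742. With the 2 groups fitted alone, no gene was called in limma and 1471 reached an unadjusted p under 0.05. Without replicate 2 of both groups the calls also went to 0, with 728 genes at an unadjusted p under 0.05. The count shown within 1.5-fold was steadier, from 9495 to 11308 over all fits that left out 1 library. It was 8517 without replicate 2 of both groups, and 8783 or 12521 with 0.1 or 1 added before taking logs.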

How the data were processed

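Whole-heart poly-A RNA from 5 groups of 3 mice was read in 150-base pairs, per the labels' protocols. The authors deposited 1 table of FPKM values per gene and library. The submitters' processing notes name CASAVA, HISAT2 2.0.5, featureCounts 1.5.0-p3, DESeq2 1.20.0 and the mouse builds GRCm38 and mm10; how DESeq2 entered the FPKM is not given in the sources used here. FPKM times gene length and library size gave whole reads for 100% of values (within 0.05 reads), and the depths above are sums of those reads. The library sizes behind the FPKM were 0.971 to 1.04 times those sums in the 6 libraries.

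Genes reaching 0.5 FPKM in 3 or more libraries were tested on log2(FPKM + 0.5), which understates the change of low genes. One limma 3.58.1 model (R 4.3.3, variance trend) held the 5 groups, with 10 residual degrees of freedom, and p values were adjusted by Benjamini-Hochberg over 15321 genes. A gene was shown within 1.5-fold when the larger of its 2 one-sided p values against a log2 difference of 0.585 up or down, adjusted alike, was under 0.05. Intervals are 95% intervals of limma, not adjusted for the number of genes, and SDs are over 3 hearts. The spread is pooled over groups, CKO_GFP and CKO_K209A included. The procedure was tested on simulated data.

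Genes were named by rule: Nat10 and Thumpd1, a panel of 37 genes, every called gene, the 8 protein-coding genes of smallest p in each direction with at least 1 FPKM, the 2 members of smallest p in each of 37 lists, and the 5 genes most changed in each direction in the knockout. Ogdh was named for its list's widest bound, after its value was seen. One gene that the rule names is not reported here. The comparison, panel and lists were chosen with earlier results of these data known. Alternatives covered the pseudocount, filter, scaling, model, margin, replicate block and left-out libraries.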

Additional observations from a re-analysis of the deposited data

How the results depend on the processing

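The 8 calls moved with the settings, while the share shown within 1.5-fold moved in smaller proportion, mostly with the pseudocount, the filter and the libraries used. Calls numbered 4 (3 higher, 1 lower) with a pseudocount of 0.1, 12 with 6 lower without the filter, 2 (0 higher, 2 lower) with equal FPKM sums, 4 (1 higher, 3 lower) with sizes from recovered reads, and 0 (0 higher, 0 lower) with the 2 groups alone or without both replicates numbered 2. There were 5 lower with quantile normalization, beside 4 higher, 3 higher without the variance trend, and 1 lower among 6 calls with at least 10 recovered reads. With limma-voom on recovered reads, chosen after seeing the data as was the read minimum, 11 genes were called, 6 higher and 5 lower, 5 of them among the 8. Leaving out 1 library gave 0 to 27 calls, 0 to 14 higher and 0 to 13 lower; 27, 13 and 11 came without CKO_GFP replicate 1, 2 and 3, and no call without any 1 CKO_G641E library, where 830, 826 and 900 genes had an unadjusted p under 0.05. Genes shown within 1.5-fold numbered 22559 of 28949 without the filter, 6517 of 7589 with 5 FPKM, and 9495 to 11308 without 1 library. They numbered 8783 with a pseudocount of 0.1, 12521 with 1, 8600 with limma-voom and 8517 without both replicates numbered 2. At a narrower margin of 0.32 on the log2 scale, 0 genes passed after adjustment, and 13844 did at 2-fold. The median of genes higher in CKO_GFP was -0.0358 with equal FPKM sums and -0.0219 to 0.0192 without 1 library, and that of genes lower in CKO_GFP -0.00949 to 0.0448. Over 33 named genes, 83 gene values in these alternatives lost the call, 13 gained it and none changed sign. The causes were not tested.

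Same-numbered libraries of the 2 groups deviated together with correlations of 0.0883, 0.364 and 0.115, not every library correlated best with its own number, and the labels do not tie the numbers to a litter or day. With the replicate block 8 genes were called (5 higher, 3 lower), 7 of them the same, with Atf3 lost (adjusted p = 0.0784), and 10704 genes were within 1.5-fold. A planned edgeR count test was not run, since the deposited unit is FPKM. Of genes under 1 FPKM 34.7% were shown within 1.5-fold.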
